A study of Mus musculus with 8 samples.

Results

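The collagen gene family was followed through poly(A) RNA sequencing of mouse embryonic fibroblasts (MEFs), connective tissue cells grown from E13.5 embryos. Every protein-coding gene whose mouse symbol has the form Col, a number, a and a number was taken, which gave 44 genes of 21303 protein-coding genes in the count table. By the structures their proteins form, 11 are fibrillar, 6 are type IV (basement membrane) and 27 are of other kinds. Of these, 40 had enough counts to be tested, namely 11 fibrillar, 6 type IV and 23 others, and Col9a1, Col13a1, Col19a1 and Col26a1 did not, with 0 to 10 counts in any library. The 8 libraries fall into 4 groups of 2 biological replicates. They cross genotype, labelled control or Mettl3 knockout, with RNA pool. The pools were total RNA of unstressed cells (called total here) and RNA of a fraction enriched in stress granules by centrifugation after arsenite (called granule here). In the knockout, 500 nM 4-hydroxytamoxifen for 48 h switched on Cre recombinase, and cells were collected the day after loss of the protein was checked at 7 days. Arsenite was given at 500 µM for 30 min, only to the cells used for the granule fraction, so stress and fraction cannot be told apart. The labels used here do not say whether the controls carried Cre or the altered allele or received the drug, what drives Cre, or how many embryos or clones gave the lines.

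Collagens are proteins, most of them secreted, in which chains wind around each other as a rigid helix. This needs glycine at regular, closely spaced positions over long stretches. Fibroblasts are their main source. Fibrillar collagens such as types I, III and V build the tension-bearing fibres of connective tissue, type IV forms the sheet under epithelia and around vessels, and type VI forms beaded microfibrils near cells. Their mRNAs are translated at the endoplasmic reticulum. Mettl3 is the enzyme that writes N6-methyladenosine (m6A) on mRNA, and stress granules are condensates of untranslated mRNA and protein that form when translation initiation is blocked, as arsenite does. The design asks which mRNAs are found in that fraction with and without Mettl3.

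The repeat is visible in the genes themselves as short exons of repeated length, and it is shown here for chains whose values the results turn on. Each line below gives 1 coding exon of 54 bases from the GENCODE transcript on build GRCm38, read 5′ to 3′ on the strand of the gene, with each codon that starts with GG (a glycine codon) in capitals.
Col1a1 exon 34, chr11:94946574-94946627, plus strand: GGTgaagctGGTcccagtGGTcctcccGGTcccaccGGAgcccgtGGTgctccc
Col1a2 exon 34, chr6:4530172-4530225, plus strand: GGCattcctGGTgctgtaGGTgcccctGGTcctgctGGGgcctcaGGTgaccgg
Col3a1 exon 32, chr1:45337958-45338011, plus strand: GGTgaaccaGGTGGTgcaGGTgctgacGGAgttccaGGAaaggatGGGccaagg
Col5a2 exon 35, chr1:45394382-45394435, minus strand: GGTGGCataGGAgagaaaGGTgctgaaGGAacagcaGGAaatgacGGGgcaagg
Col4a1 exon 17, chr8:11238998-11239051, minus strand: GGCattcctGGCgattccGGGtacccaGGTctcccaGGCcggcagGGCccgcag
Col6a1 exon 17, chr10:76717262-76717315, minus strand: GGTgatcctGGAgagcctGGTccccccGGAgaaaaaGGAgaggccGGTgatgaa
Col6a2 exon 11, chr10:76610650-76610703, minus strand: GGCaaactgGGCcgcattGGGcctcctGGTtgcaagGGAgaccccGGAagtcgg
Col6a3 exon 16, chr1:90795915-90795968, minus strand: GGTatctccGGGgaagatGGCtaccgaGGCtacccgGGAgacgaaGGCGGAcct
In all 8 exons glycine codons stand 3 codons apart, with an additional one in Col3a1, Col5a2 and Col6a3. Of 1912 internal coding exons of the family, 63.7% had a length that is a multiple of 9 bases, against 14.1% of 134791 internal coding exons of the protein-coding genes tested. The share was 84.0% in fibrillar, 47.2% in type IV and 55.7% in other collagens. Exons of exactly 54 bases made up 48.8% of those of the fibrillar genes and 4.23% of those of type IV, against 0.719% of the background. The median collagen gene had 48 exons (8 over the tested protein-coding genes), a median internal exon of 61.5 bases (125) and a GC content of 55.4% (50.5%). Only 32.8% of its transcript lay more than 100 bases from an exon junction, against 61.4% over those genes.

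Libraries held 67257220 to 123508539 counts, and values are given as CPM, counts relative to the library's total, here scaled by edgeR's TMM factors. At that depth 3 counts, the limit that a count of 0 allows, equal 0.0446 CPM in the smallest library. Mettl3 checked the labels, with 25.4 and 24.9 CPM in control total, 15.7 and 15.4 in control granule, 6.0 and 7.35 in knockout total and 5.56 and 6.38 in knockout granule. The 8 fibroblast and mesenchyme markers were all detected, with a summed level of 1308 to 3762 CPM carried by Vim (999 to 3437 CPM). Pdgfra (1.39 to 3.47), Lum (2.23 to 5.22), Thy1 (3.30 to 12.9) and Dcn (8.01 to 18.3) were low. Summed levels of the other marker lists were 6.35 to 20.5 CPM (endothelial), 14.1 to 37.3 (epithelial), 22.9 to 51.1 (haematopoietic), 1.72 to 5.94 (skeletal muscle) and 5.62 to 40.6 (neural and Schwann). Mitochondrially encoded transcripts took 0.590 to 0.881% of counts in 5 libraries, 7.60% in knockout total replicate 1, and 6.16% and 8.81% in knockout granule. The p-values measure the spread between 2 libraries a group and their shared variance, and replicates are called biological without a source being named.

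Collagen mRNA was a larger part of the granule-fraction RNA of knockout cells than of any other pool. In knockout granule, collagens together took 1.05% and 0.900% of all counts, against 0.425% and 0.507% in knockout total. In control cells the shares were 0.503% and 0.423% in the granule pool and 0.641% and 0.633% in total RNA. The Wilson 95% interval of each share, which covers counting error only, reached at most 0.00194 percentage points to either side. The knockout granule libraries were above the other 6 for the family as a whole. Fibrillar collagens held 0.678% and 0.593% in knockout granule against 0.309% and 0.257% in control granule, and collagens of other kinds held 0.218% and 0.182% against 0.0782% and 0.0692%. For both classes these were the highest shares of the 8 libraries. Within the fibrillar share, Col1a1 alone held 0.411% and 0.341% of all counts in knockout granule, against 0.149% and 0.120% in control granule. Type IV held 0.153% and 0.125% in knockout granule against 0.116% and 0.0974% in control granule, but 0.151% and 0.155% in control total and 0.103% and 0.132% in knockout total, so its knockout granule share was within the range of total RNA. Several marker lists moved with this result. The summed fibroblast and mesenchyme level was 3551 and 3762 CPM in granule RNA of control cells, against 1852 and 1874 CPM in that of knockout cells. This fall was that of Vim, from a mean of 3317 to 1312 CPM, with Twist1 at 135 and 129. The other markers of that list were higher in knockout granule. Pdgfrb went from a mean of 84.6 to 231 CPM, Prrx1 from 103 to 161 and Dcn from 9.17 to 16.2. Thy1 went from 4.32 to 7.34, Lum from 2.45 to 3.28 and Pdgfra from 1.46 to 3.13. The endothelial level was 6.35 and 8.39 against 11.1 and 14.8 CPM, the haematopoietic 22.9 and 26.97 against 32.6 and 38.4, and the neural and Schwann 5.62 and 5.76 against 9.72 and 10.8, lower value first, with no overlap between the pools. The high mitochondrial share of both knockout granule libraries also moves with it, and the part of these in the result was not tested. Knockout total replicate 1, with a mitochondrial share of 7.60%, had a collagen share of 0.425%. In bulk RNA, fewer cells of a kind and less RNA per cell cannot be told apart.

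**Figure D1:**
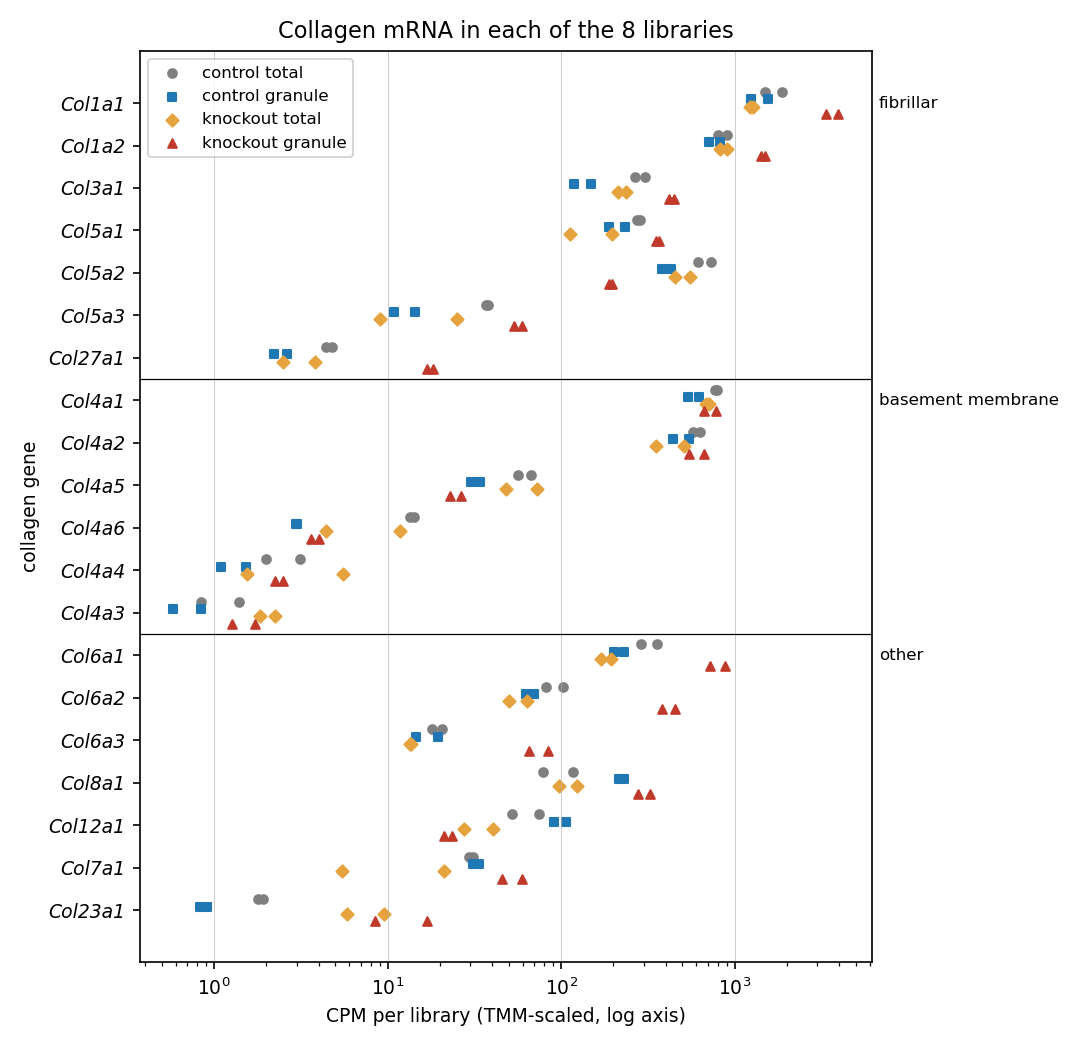
CPM of the 20 collagen genes described in full, in each of the 8 libraries, on a log axis. Points are single libraries, coloured and shaped by group, and genes are grouped by class. For Col1a1, Col6a1, Col6a2 and Col6a3 both knockout granule points lie to the right of the other 6, and for Col5a2 and Col12a1 to the left.

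Relative to transcript length, chains of types I, IV, VI and V had the highest levels of the family. Per kilobase of exon, the mean level over the 8 libraries was 305 CPM for Col1a1, 93.1 for Col4a1, 86.7 for Col6a1, 80.4 for Col4a2, 79.5 for Col1a2 and 46.4 for Col5a2. With the length of the main coding transcript in place of all exons, Col1a2 came second at 185 CPM per kilobase, after Col1a1 at 338, so the order below Col1a1 depends on the length used. It also depended on the group. Col6a1 was at 73.3 CPM per kilobase of exon in control total, below Col4a1 (105) and Col4a2 (90.8), and at 183 in knockout granule, above all but Col1a1 (559.8). Col5a2 was at 70.5 in control total and at 20.1 in knockout granule, there below Col6a2 (50.1), Col3a1 (43.9) and Col5a1 (42.1). Over the family 21 genes had a mean of at least 5 CPM and 14 a mean under 1. The 20 tested genes not described one by one ranged from 0.0846 to 118 CPM in the mean, with Col16a1 and Col18a1 at the top.

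Counts of collagens that passed the test are set beside all 18952 genes tested in the same fit. Between knockout and control granule RNA, 13 of the 40 tested collagens were higher and 2 lower (37.5%), where 9.45% of all genes were called, 5.79% higher and 3.66% lower. The median log2 fold change was 1.26 over the collagens and 0.08 over all genes, and 37 of 40 were positive. The 2 knockout granule libraries were both above both control granule libraries for 33 collagens, 82.5%, against 40.4% of all genes, and both below for Col4a5, Col5a2 and Col12a1 (36.6% of all genes). They were above all 6 other libraries for 17 collagens, where 17.6% of all genes were, and below all 6 for those same 3, where 12.0% were. Between knockout granule and knockout total RNA, 11 collagens were higher and 2 lower, with 17.6% of all genes called (9.17% higher, 8.47% lower). The replicates did not overlap for 20 collagens that were higher and 7 that were lower, against 31.5% and 26.5% of all genes. The collagen median was 0.61 and that of all genes 0.04. In control cells the granule fraction held 1 collagen at a higher and 3 at a lower level than total RNA, with 10.1% of all genes called (5.89% higher, 4.17% lower), so the share called among collagens was at the background. Those called were Col8a1, which rose, and Col3a1, Col4a6 and the type VI gene Col6a4 (12 and 10 counts in control granule), which fell. The replicates did not overlap for 4 collagens that were higher and 26 that were lower, against 35.2% and 37.3% of all genes. The median there was -0.76 for collagens and -0.06 for all genes, and 34 of 40 were negative. Between genotypes in unstressed total RNA none of the 40 was called by edgeR, and DESeq2's Wald test called 4 (12.9% of all genes). By edgeR 0.412% of all genes were called, 0.274% higher and 0.137% lower. The medians were -0.29 and 0.02, and the replicates did not overlap for 5 collagens that were higher and 20 that were lower, against 24.4% and 24.7% of all genes. With the GC trend removed the collagen median was 0.13, so its direction depends on that step.

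A fit of the 4 knockout libraries alone called 0 collagens and 0.0% of all genes between granule and total RNA. These comparisons share libraries, so their counts are not independent of each other. Leaving out 1 granule library at a time ended most of the calls between genotypes in granule RNA: 0 collagens were called without either control granule library (0.0% of all genes) or without knockout granule replicate 1 (0.201%), and 2 without knockout granule replicate 2 (0.433%). Without knockout total replicate 1 or 2, which are not in the comparison but share its estimate of the spread, 29 and 27 were called (39.0% and 38.9%).

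**Figure D2:**
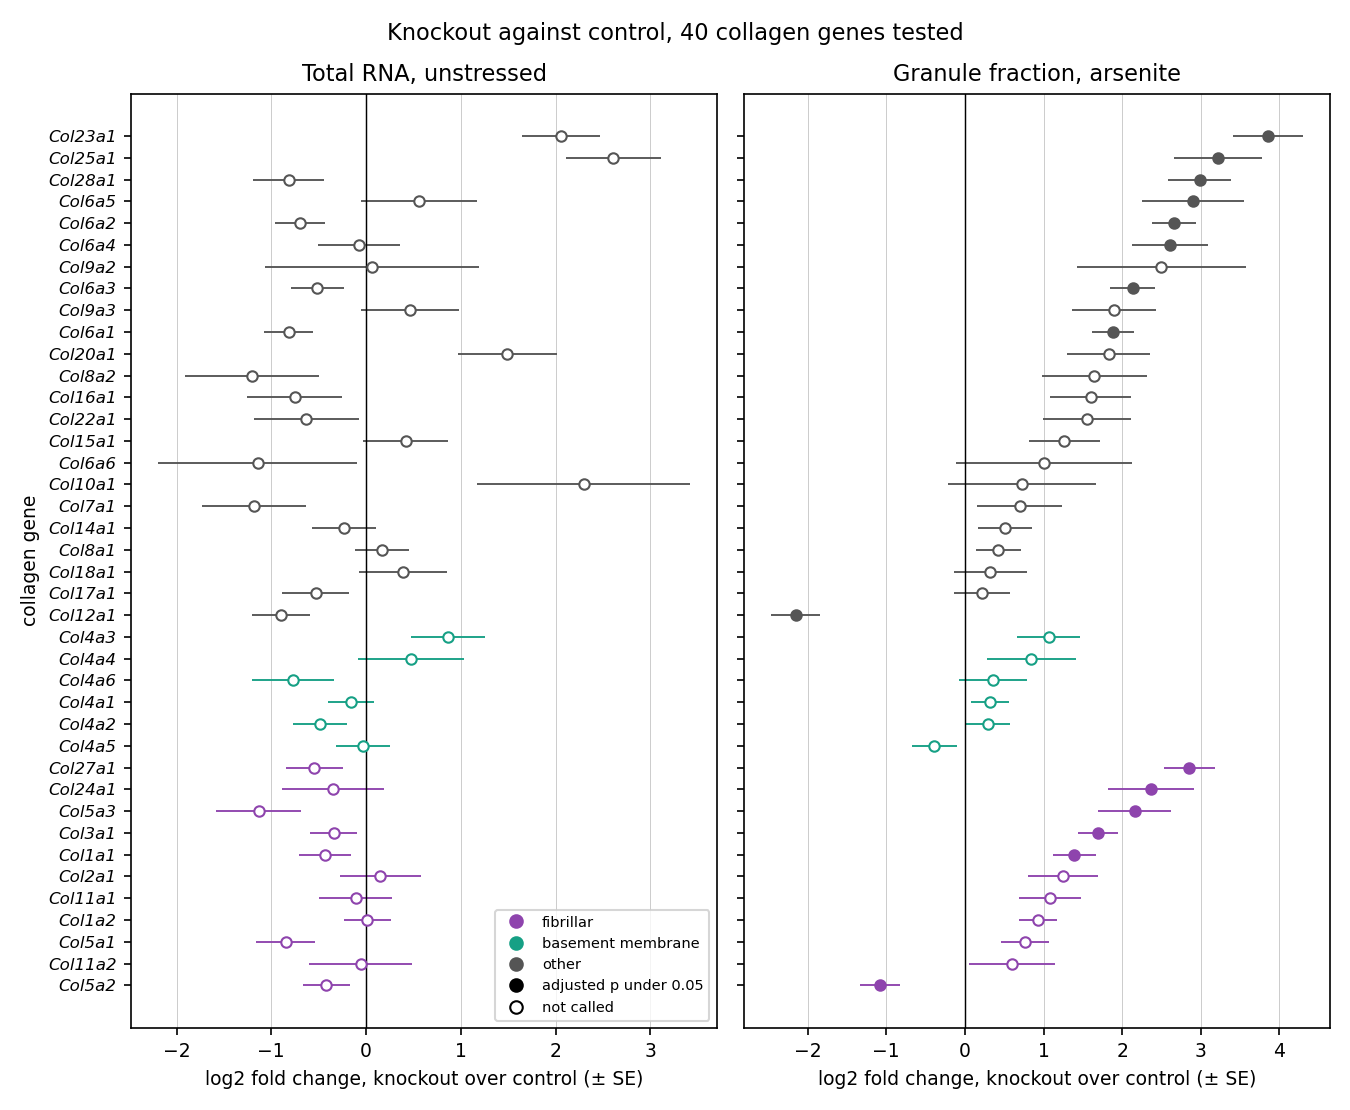
Log2 fold change of knockout over control, with its standard error from edgeR, for the 40 collagens tested, in total RNA (left) and granule RNA (right). Filled points passed an adjusted p under 0.05. None is filled on the left, and 15 are filled on the right, where 13 lie above 0 and Col5a2 and Col12a1 below.

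Among fibrillar collagens, 5 of 11 rose and 1 fell in knockout against control granule RNA, with a median of 1.25. Col1a1 (11:94936224-94953042) encodes the main chain of the most abundant collagen of skin and bone. It stood at 1880.3 and 1492 CPM in control total, 1551 and 1249 in control granule, 1270.0 and 1226 in knockout total, and 3966 and 3382 in knockout granule. Both knockout granule libraries were above the other 6. The log2 fold change of Col1a1 was 1.39 (SE 0.27, adjusted p = 0.0231) against control granule and 1.56 (SE 0.28, adjusted p = 0.0104) against knockout total.

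Its partner chain Col1a2 (6:4504814-4541544) moved less. It was at 908 and 806 CPM in control total, 823 and 711 in control granule, 907 and 825 in knockout total, and 1495 and 1426 in knockout granule. Knockout granule was above the other libraries here too, but the fold change of 0.93 against control granule (SE 0.25, adjusted p = 0.0523) did not pass.

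Col3a1 (1:45311538-45349706), the chain of type III collagen of skin and vessel walls, was the fibrillar gene called in both genotypes, in opposite directions. Its levels were 303 and 266 CPM in control total, 148 and 119 in control granule, 238 and 211 in knockout total, and 416 and 447 in knockout granule. In control cells the granule fraction held less than total RNA (log2 fold change -1.09, SE 0.25, adjusted p = 0.0338), and in knockout cells more (0.94, SE 0.25, adjusted p = 0.0362). The call in knockout cells ended when nearly all genes were kept (adjusted p = 0.0800), with voom (0.192) and in a fit of the knockout libraries alone (0.214). The difference between those changes was 2.03 (SE 0.35) and missed the threshold with an adjusted p of 0.0572.

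Type V collagen, which regulates fibril diameter, has chains that parted. Col5a2 (1:45374321-45503282) was the fibrillar gene that fell, from 618 and 735 CPM in control total and 432 and 382 in control granule to 556 and 456 in knockout total and 197 and 189 in knockout granule. Both knockout granule libraries were below all others. The change was -1.08 (SE 0.25, adjusted p = 0.0365) against control granule and -1.39 (SE 0.25, adjusted p = 0.0110) against knockout total. The first of these was no longer called when libraries were scaled by their totals alone (adjusted p = 0.0534) or when genes averaging under 5 CPM were left out (0.0604).

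Col5a1 (2:27886425-28039514), the major chain of the same protein, went the other way within knockout cells. It was at 284 and 272 CPM in control total, 232 and 188 in control granule, 113 and 196 in knockout total, and 365 and 349.9 in knockout granule. It rose in granule over total RNA of knockout cells by 1.21 (SE 0.31, adjusted p = 0.0343), and against control granule its value was 0.76 (SE 0.31, adjusted p = 0.152). The call in knockout cells ended with replicate number added to the fit (adjusted p = 0.0673), with voom (0.0892) and in a fit of the knockout libraries alone (0.176).

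Of the less common fibrillar chains, Col5a3, Col24a1 and Col27a1 rose between the granule pools, and Col2a1, Col11a1 and Col11a2 were not called (adjusted p = 0.113, 0.119 and 0.513). Col5a3 (9:20770050-20815067), another chain of type V, was at 36.9 and 37.9 CPM in control total, 14.4 and 10.9 in control granule, 9.01 and 25.1 in knockout total, and 59.6 and 53.4 in knockout granule. Its change against control granule was 2.16 (SE 0.46, adjusted p = 0.0306), a call that ended with replicate number added to the fit (adjusted p = 0.0627). Col27a1 (4:63214004-63334991), a fibrillar collagen best known from cartilage, was at 4.41 and 4.79, 2.63 and 2.22, 2.50 and 3.81, and 16.9 and 18.2 CPM in the same order of groups. Its change was 2.85 (SE 0.32, adjusted p = 0.00522) against control granule and 2.48 (SE 0.32, adjusted p = 0.00394) against knockout total, with both knockout granule libraries far above the rest. The chondrocyte list moved with it: its summed level was 27.7 to 32.6 CPM in control total, 50.8 to 51.6 in control granule, 23.4 to 37.3 in knockout total and 74.2 to 79.8 in knockout granule, nearly all of it Sox9. Of its defining genes, Acan, Matn1, Cnmd and Hapln1 were at most 0.270 CPM, each with at least 1 library at 0. The last of the 6, Matn3, was detected in all libraries at 0.0712 to 0.620 CPM, with a mean of 0.528 in control granule and 0.140 in knockout granule. The part of such cells in the result was not tested. Col24a1, below 5 CPM in the mean, was the fifth fibrillar gene that rose between granule pools, by 2.37 (SE 0.55, adjusted p = 0.0374). It had 16 and 17 counts in the control granule libraries.

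Type IV collagens had smaller values. None of the 6 was called between genotypes in granule RNA by edgeR, and the median was 0.34. Col4a1 (8:11198423-11312826) and Col4a2 (8:11312805-11449287) form the common network of most basement membranes. Col4a1 was at 788 and 772 CPM in control total, 622 and 538 in control granule, 712 and 683 in knockout total, and 777 and 667 in knockout granule. Its change between granule pools was 0.32 (SE 0.24, adjusted p = 0.426). Col4a2 was at 630.1 and 573, 546 and 441, 349.6 and 507, and 663 and 547 CPM, and its change was 0.29 (SE 0.28, adjusted p = 0.535). For both genes both knockout granule libraries lay above both control granule libraries, as they did for Col4a3, Col4a4 and Col4a6 and for 40.4% of all genes. For Col4a5 both lay below. The knockout granule libraries of Col4a1 and Col4a2 overlapped those of control total.

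The chains of more restricted basement membranes were lower. Col4a5 (X:141475385-141689234), a chain of kidney and skin basement membranes, was at 56.3 and 67.003 CPM in control total, 34.0 and 30.2 in control granule, 72.5 and 48.2 in knockout total, and 26.4 and 22.7 in knockout granule. Against knockout total its log2 fold change in knockout granule was -1.30 (SE 0.29, adjusted p = 0.0229). That call ended with voom (adjusted p = 0.0839) and in a fit of the knockout libraries alone (0.130). Col4a6 (X:141165403-141474076) was at 13.4 and 14.2, 2.999 and 2.96, 4.39 and 11.8, and 4.02 and 3.62 CPM. It was lower in the granule than in the total pool of control cells (-2.21, SE 0.45, adjusted p = 0.0263), and its knockout total libraries differed more than 2-fold. Col4a3 and Col4a4, chains of the filtering membrane of the kidney, ranged from 0.580 to 2.25 and from 1.10 to 5.55 CPM and were called in no comparison.

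Type VI chains rose together. Of the 6 beaded filament genes 5 rose in knockout against control granule RNA, with a median of 2.37, and none fell. The Col6a1 (10:76708792-76726168) and Col6a2 (10:76595762-76623630) genes encode chains that join the longer α3 chain in one molecule. Col6a1 was at 354 and 288 CPM in control total, 232 and 201 in control granule, 170.4 and 194 in knockout total, and 881 and 719 in knockout granule. Col6a2 was at 103 and 81.8, 69.3 and 62.6, 50.1 and 63.8, and 451 and 382 CPM in that order. Col6a3 (1:90765923-90843971) was at 17.97 and 20.7, 19.4 and 14.6, 13.4 and 13.6, and 83.8 and 64.9 CPM. In all 3 the lowest knockout granule library was more than 2-fold above the highest of the other 6.

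Against control granule the log2 fold change was 1.89 for Col6a1 (SE 0.26, adjusted p = 0.00904), 2.66 for Col6a2 (SE 0.28, adjusted p = 0.00400) and 2.13 for Col6a3 (SE 0.29, adjusted p = 0.00836). Against knockout total it was 2.14, 2.87 and 2.46, with adjusted p-values of 0.00376, 0.00232 and 0.00334. Col6a4 and Col6a5, further chains of the type VI family, were also called against control granule, by 2.61 (adjusted p = 0.0190) and 2.90 (adjusted p = 0.0341). Both rest on few reads: the control granule libraries held 12 and 10 counts of Col6a4 and 8 and 4 of Col6a5.

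Among the remaining kinds, 3 genes rose and 1 fell between granule pools. Col23a1 (11:51289920-51583918), a collagen anchored in the cell membrane, was at 1.78 and 1.90 CPM in control total, 0.825 and 0.914 in control granule, 5.81 and 9.51 in knockout total, and 16.7 and 8.45 in knockout granule. Both knockout pools were above both control pools. Its change was 3.85 (SE 0.45, adjusted p = 0.00608) in granule RNA and 2.06 in total RNA, which was not called (adjusted p = 0.0841). The membrane collagen Col25a1 and Col28a1, both below 5 CPM, rose by 3.22 (adjusted p = 0.0166) and 2.99 (adjusted p = 0.00813). In total RNA the change of Col25a1 between genotypes was 2.61, which was not called (adjusted p = 0.0741). Within knockout cells Col25a1 was lower in granule than in total RNA, by -1.49, also not called (adjusted p = 0.0608). Col28a1 was higher there, by 2.38 (adjusted p = 0.00778). The control granule libraries held 2 and 8 counts of Col25a1 and 56 and 52 of Col28a1.

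Col12a1 (9:79598991-79718831), which sits on the surface of type I fibrils, was the gene that fell. It was at 52.2 and 74.1 CPM in control total, 107 and 90.4 in control granule, 40.4 and 27.5 in knockout total, and 23.4 and 21.03 in knockout granule. The change between granule pools was -2.15 (SE 0.32, adjusted p = 0.0107), and knockout granule lay below the other 6 libraries.

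Col8a1 (16:57624258-57754737), a short-chain collagen of vessel walls and the cornea, was the gene that rose in granule over total RNA in both genotypes. It was at 78.6 and 117 CPM in control total, 229 and 216 in control granule, 123 and 97.1 in knockout total, and 323 and 275 in knockout granule. The change was 1.19 (SE 0.29, adjusted p = 0.0404) in control and 1.44 (SE 0.29, adjusted p = 0.0157) in knockout cells, and 0.43 between the granule pools, which was not called. The control call ended when libraries were scaled by their totals alone (adjusted p = 0.0636) or without genes averaging under 5 CPM (0.0504). It also ended with replicate number added to the fit (0.0868). The knockout call of Col8a1 ended with voom (adjusted p = 0.0548) and in a fit of the knockout libraries alone (0.117). Col7a1 (9:108953586-108984875), the anchoring fibril collagen of skin, was at 29.3 and 31.2, 33.7 and 30.8, 5.43 and 21.2, and 45.3 and 59.2 CPM, and rose in granule over total RNA of knockout cells by 1.97 (SE 0.56, adjusted p = 0.0465). Its knockout total replicates differed by nearly 4-fold, and the call ended with scaling by library totals alone (adjusted p = 0.0605), without genes averaging under 5 CPM (0.0550) and in a fit of the knockout libraries alone (0.179).

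The interaction of genotype and pool asks whether the granule-to-total ratio is the same in both genotypes. It was called for 5 collagens, all higher in the knockout, where 0.517% of all genes were called (0.401% higher, 0.116% lower): Col6a1 2.70 (SE 0.37, adjusted p = 0.0390), Col6a2 3.36 (SE 0.38, adjusted p = 0.0374), Col6a3 2.65 (SE 0.40, adjusted p = 0.0437), Col27a1 3.40 (SE 0.44, adjusted p = 0.0375) and Col28a1 3.80 (SE 0.54, adjusted p = 0.0405). Of these, 3 are type VI chains. The medians were 1.61 for fibrillar, 0.42 for type IV and 1.88 for other collagens, and 0.09 for all genes. With the GC trend of each comparison removed the fibrillar median was 0.79 and that of type IV -0.10, and without any 1 control or knockout granule library edgeR called 0 collagens and 0 genes in all.

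The ratio of counts between chains that share a molecule was not the same in every group. Col1a1 counts stood to Col1a2 counts as 1.96 ± 0.156 (SD, n = 2) in total RNA of control cells and 1.82 ± 0.0896 in their granule RNA, and as 1.44 ± 0.0611 and 2.51 ± 0.199 in knockout cells. The ratio of Col6a1 to Col6a2 was 3.48 ± 0.0542, 3.28 ± 0.0870, 3.22 ± 0.257 and 1.92 ± 0.0510 in the same order, so Col6a2 gained on Col6a1 in the knockout granule fraction. The ratio of Col5a1 to Col5a2 was 0.415 ± 0.0635, 0.516 ± 0.0316, 0.316 ± 0.160 and 1.85 ± 0.00224, turning from below to above 1. Col4a1 to Col4a2 stood at 1.30 ± 0.0702, 1.18 ± 0.0582, 1.69 ± 0.487 and 1.20 ± 0.0339, with the knockout total libraries far apart. With 2 libraries a group the smallest two-sided p of an exact permutation test is 0.333, so these ratios were not tested.

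**Figure D3:**
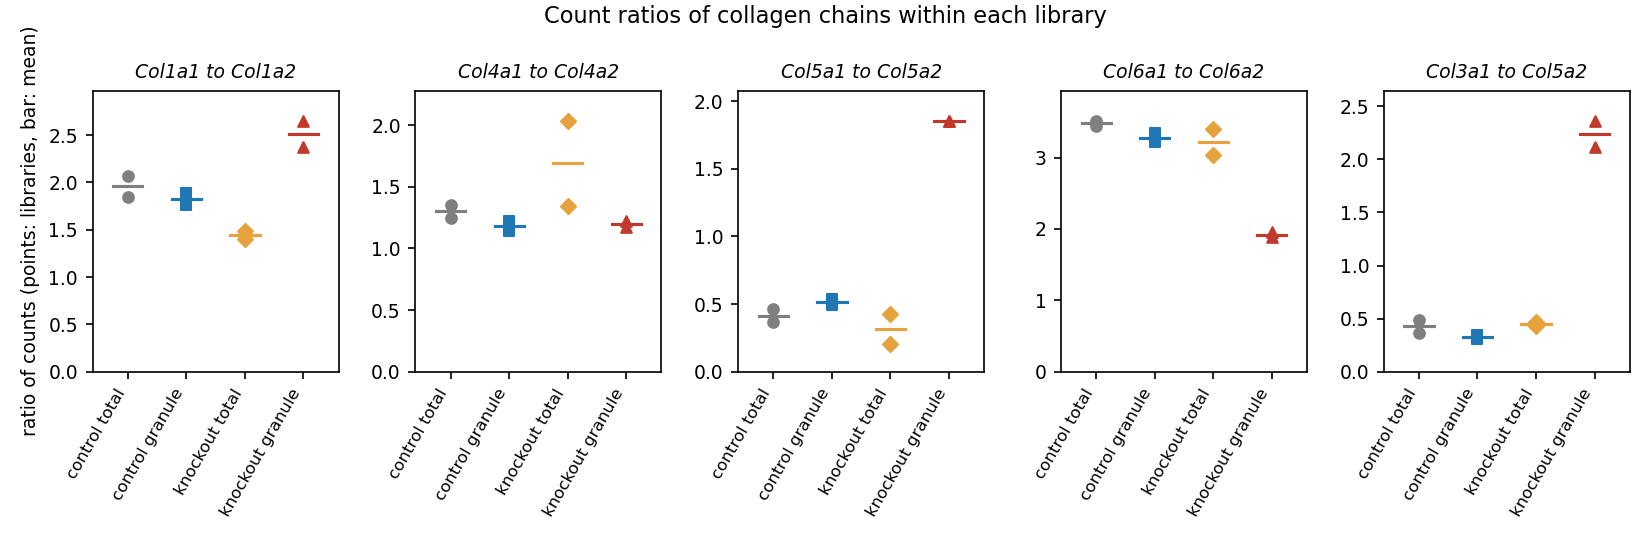
Ratio of counts between partner chains, and between the neighbouring genes Col3a1 and Col5a2, in each library. There is 1 panel a pair, with groups along the horizontal axis. Points are single libraries and bars the group mean. In knockout granule the ratio of Col5a1 to Col5a2 is at 1.85 and that of Col6a1 to Col6a2 at 1.92, apart from the other groups.

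Several collagens lie next to each other in the genome, and neighbours did not always move together. Col4a1 and Col4a2 start head to head on chromosome 8 with 22 shared bases, and their values in granule RNA were close, as given above. Col3a1 and Col5a2 end tail to tail on chromosome 1 with 24614 bases between them, and their counts stood at 2.24 ± 0.178 (SD, n = 2) in knockout granule and between 0.327 and 0.446 in the means of the other groups. Between the granule pools Col3a1 rose and Col5a2 fell. Col6a1 and Col6a2 lie on the same strand of chromosome 10 with 85161 bases between them, and both rose. Exons of other genes cover at most 6.07% of the exon length of any collagen, and whether the counting used strand is not given in the sources used here.

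The replicates of knockout total RNA lay further apart than those of the other groups, for collagens and for genes in general. For the 21 collagens that averaged 5 CPM or more, the replicates lay a median of 0.55 log2 units apart in knockout total, and 0.18 to 0.22 in the other 3 groups. Over 15389 protein-coding genes these medians were 0.75 and 0.14 to 0.34. In knockout total 5 of the 21 collagens and 5659 of the protein-coding genes differed more than 2-fold. In the other groups 0 of the 21 did, with 967 protein-coding genes in control total, 490 in control granule and 514 in knockout granule. Across these 21 genes, which share the libraries, the log2 ratio of knockout total replicate 1 over 2 had a Spearman rho of -0.83 with GC content of the transcript, so that GC-rich collagens were lower in replicate 1. It was -0.66 over the protein-coding genes. In control total the same ratio had a rho of 0.53 over the 21 collagens and 0.58 over the protein-coding genes. Of the fold changes, the one between granule pools had a rho with GC of 0.28 over the 21 collagens, 0.03 over all 40 and 0.20 over protein-coding genes. That of knockout granule against knockout total had 0.39, 0.32 and 0.22, and the interaction had 0.47, 0.29 and 0.53, in the same order. The part of GC in the results was not tested beyond removing its trend. After that every call on a described collagen between the granule pools was kept. That fit called more genes in general, 24.0% of all genes between the granule pools, against 9.45% in the main fit. Col1a1 in knockout granule against knockout total was no longer called (0.88, adjusted p = 0.0863).

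**Figure D4:**
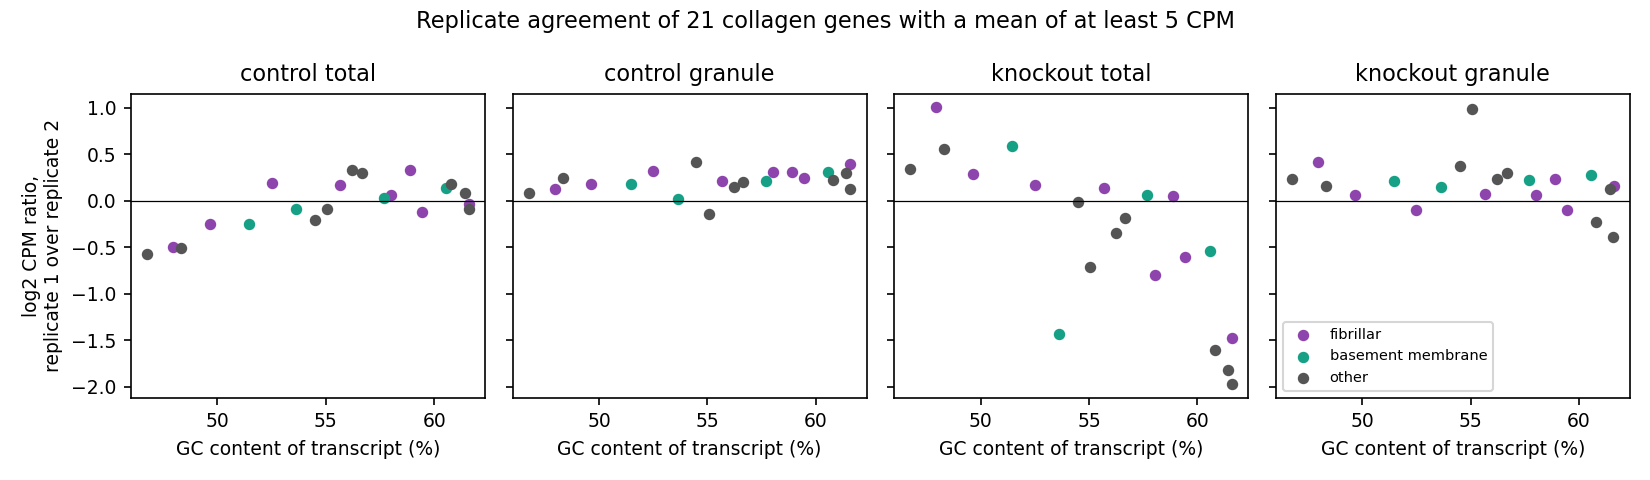
Log2 ratio of replicate 1 over replicate 2 against GC content of the transcript, in percent, for the 21 collagens that averaged 5 CPM or more, 1 panel a group. Each point is a gene. In knockout total the points fall from left to right (Spearman rho -0.83), and in the other groups they stay within 1 log2 unit of 0.

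For genes that mature collagen or bind it at the cell surface, the shares called, both directions together, were not above those of all genes, except in the interaction. From a list of 45 genes for hydroxylation, folding and export, propeptide removal, cross-linking and cell surface receptors, 42 were tested. Between granule pools 1 was higher and 2 lower (7.14%, against 9.45% of all genes), with a median of 0.06 (0.08 over all genes). In knockout cells 5 were higher and 2 lower in granule than in total RNA (16.7%), with a median of 0.13. Of all genes 17.6% were called there, 9.17% higher and 8.47% lower. In control cells 0 were higher and 2 lower (4.76%, against 10.1%), with a median of -0.16. Between genotypes in total RNA 0 were called, where 0.412% of all genes were. For the interaction 1 was called, Loxl2, which was higher (2.38%, against 0.517% of all genes).

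The cross-linking enzymes parted. Loxl2, a lysyl oxidase, was at 20.3 and 15.9 CPM in control total, 15.6 and 13.9 in control granule, 3.86 and 4.02 in knockout total, and 36.4 and 72.2 in knockout granule. It rose by 1.88 (SE 0.36, adjusted p = 0.0231) against control granule, and its interaction was 4.08 (SE 0.52, adjusted p = 0.0375). Loxl4, of the same family, was at 163 and 157, 99.3 and 83.8, 39.7 and 64.8, and 27.4 and 29.3 CPM, and its change between granule pools was -1.69 (SE 0.30, adjusted p = 0.0175).

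Genes named for propeptide processing rose and those for modification fell in granule over total RNA of knockout cells, but their lists as a whole did not. Over the 6 propeptide processing genes tested the median log2 fold change was -0.34, with 2 positive and 4 negative. Over the 15 hydroxylases and glycosyltransferases it was 0.24, with 9 positive and 6 negative, and 1 called higher and 2 lower. Bmp1, the protease that trims fibrillar procollagen, was at 78.3 ± 27.2 CPM (SD, n = 2) in knockout total and 182 ± 9.33 in knockout granule, a change of 1.21 (SE 0.30, adjusted p = 0.0319). Its enhancer Pcolce went from 552 ± 255 to 1315 ± 123.6 CPM, a change of 1.25 (SE 0.36, adjusted p = 0.0475). Colgalt1, which adds galactose to collagen hydroxylysine, went from 251 ± 25.3 to 68.2 ± 9.25 CPM, a change of -1.88 (SE 0.25, adjusted p = 0.00443), and was also lower in control granule than in control total (-0.94, SE 0.25, adjusted p = 0.0496). P3h2, a prolyl 3-hydroxylase, was at 10.3 ± 0.733 and 2.48 ± 0.463 CPM, a change of -2.06 (SE 0.30, adjusted p = 0.00584).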

How the data were processed

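Gene-level read counts, as deposited by the authors, were used without change. The submitters' processing notes name STAR, DESeq2 and the build GRCm38 (mm10). The counting program, annotation, strand setting and versions are not given in the sources used here. Identifiers were matched to GENCODE M21, and 0.167 to 0.221% of counts lay on unmatched ones. The fit was edgeR 4.0.16 (R 4.3.3): TMM factors, its expression filter over 4 groups, a robust quasi-likelihood F-test with 1 mean a group over 8 libraries (4 residual degrees of freedom), and Benjamini-Hochberg adjustment over 18952 genes, called at an adjusted p under 0.05, two-sided. The procedure was tested on simulated data with the same spread for every gene and changes in control granule alone. The wider spread of the knockout total replicates was not simulated. Standard errors are the fold change divided by the square root of F. Alternatives were DESeq2 1.42.0, limma 3.58.1 (voom), other scalings and filters, a replicate block, GC removal and leaving out libraries. Values in full are given for tested members that were called and averaged 5 CPM or more, were among the 6 highest per kilobase, or are chains of type I, III or IV. From the maturation list, genes that were called and averaged 5 CPM or more are named, at most 3 each way a comparison. Other names were chosen after their values were seen. Members, classes and lists were chosen with earlier results of these data known. Exon sequences were read from GENCODE transcripts.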

Additional observations from a re-analysis of the deposited data

Results flagged for a closer look

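For 5 collagens the granule-to-total ratio differed between genotypes by edgeR's interaction test. The log2 difference, knockout minus control, was 2.70 for Col6a1, 3.36 for Col6a2, 2.65 for Col6a3, 3.40 for Col27a1 and 3.80 for Col28a1. In each, control granule lay at or below control total in the mean, and both knockout granule libraries lay above both knockout total libraries. Over the alternatives these differences ranged from 1.92 to 2.90 for Col6a1, 2.64 to 3.55 for Col6a2 and 2.10 to 2.85 for Col6a3, with no change of sign. The calls themselves were less stable. For Col6a1, Col6a2, Col6a3 and Col27a1 each was kept in 10 of 17 alternatives. With replicate number added to the fit, the adjusted p was 0.125 for Col6a1, Col6a2 and Col27a1 and 0.127 for Col6a3.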

How the results depend on the processing

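Under the alternatives, the calls on described collagens held in the same direction in 357 cases, were lost in 161 and reversed in 0. The number of collagens called moved more. Each count is followed by the share of all genes called in the same fit. In control granule against control total RNA it was 4 and became 11 with DESeq2's Wald test (21.3%), 7 with no filter beyond 1 count (13.2%), 2 with a mean of at least 5 CPM (11.9%), 10 with the GC trend removed (20.1%), 19 with only the groups compared (42.4%), 18 with voom (39.3%), and 0 to 21 without 1 library: 21 (40.6%) and 19 (39.9%) without knockout total replicate 1 and 2, and 0 without any other (at most 2.02%). In knockout granule against knockout total it was 13, 0 with only the groups compared (0.0%) and 4 to 25 without 1 library: 4 without either knockout granule library (1.47% and 1.22%), 7 without either control granule library (7.79% and 7.72%), and 20 (34.0%) and 25 (48.2%) without knockout total replicate 1 and 2. Between genotypes in total RNA it was 0, and 4 with the Wald test (12.9%), 5 with no filter (11.2%), 5 with the GC trend removed (4.07%) and 0 to 13 without 1 library: 5 (5.52%) and 13 (47.8%) without knockout total replicate 1 and 2. In granule RNA it was 15, 34 with only the groups compared (57.3%), 33 with voom (55.2%) and 0 to 29 without 1 library (0 to 39.0%). The interaction count was 5, 14 with the Wald test (14.4%), 15 with no filter (11.5%), 8 with the GC trend removed (9.49%), 9 with voom (3.92%) and 0 to 28 without 1 library: 17 (18.6%) and 28 (46.4%) without knockout total replicate 1 and 2, and 0 without any other. The cause was not tested. Scaling by library totals alone put the median of all genes at -0.19 in control granule against total, 0.17 between granule pools and 0.28 in the interaction. The median of all collagens in total RNA between genotypes was -0.29, and 0.13 with the GC trend removed.

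Same-numbered libraries of different groups did not deviate together (correlations -0.25 to 0.10), so the numbers are not taken as pairs. A replicate block ended 13 calls on described collagens and kept 16. With it the counts of collagens called were 0 in control granule against control total (3.07%) and 0 for the interaction (0.0%). With the block and the GC trend removed they were 7 in the first (16.4%) and 1 (1.90%) between genotypes in total RNA.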
